A study of Mus musculus with 36 samples.

Results

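The data described here are the uridine chase in undepleted mouse embryonic stem cells (mES cells), 18 of the 36 libraries of a SLAM-seq series, in which the loss of label from each mRNA was followed after a pulse of 4-thiouridine (4sU). All libraries labelled Ctrl were taken, and genes with at least 100 reads in every one of them were kept, which gave 7489 genes of the 18419 listed in all 6 tables. The cells belonged to 3 degron lines, each of them 1 clone, with an FKBP12-derived tag on METTL3 in clone 12D, on YTHDC1 in clone Y12H and on ZCCHC8 in clone Z12H, through which dTAG-13 can degrade the protein, and none of the Ctrl cells received dTAG-13. All lines are XX cells of a Cast x 129S background in which the Xist promoter of the 129S allele was replaced by a TetOn promoter and Xist carries an array of Bgl stem loops. All of them received doxycycline (1 µg/ml, started 20 h ahead of the 4 h pulse and kept on during it), so that every library described here also came from cells inducing Xist. The pulse used 500 µM 4sU, the chase was 50 mM uridine for 0, 90 or 180 min, and each line and time had 2 replicates. A line and replicate followed over its 3 times is called a series below, so that 6 series were available and each time had 6 libraries. The cells were grown in serum and LIF on inactivated fibroblasts, which were removed by preplating before labelling.

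In SLAM-seq, 4sU enters new RNA and is alkylated with iodoacetamide. An alkylated base is copied as if it were C, and T-to-C mismatches therefore mark RNA made during the pulse. When uridine replaces 4sU, labelled molecules are no longer made, and their share of a gene's RNA falls as they decay and as unlabelled molecules replace them. Most cytoplasmic mRNAs are degraded after the CCR4-NOT complex shortens their poly(A) tail, and sequence elements in the 3′ untranslated region (UTR), among them AU-rich elements, set how often this machinery is recruited. Short-lived mRNAs are well known among inducible regulators, and long-lived mRNAs among genes of metabolism and protein synthesis.

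The measure was the T-to-C rate, the number of conversions as a percentage of the T positions covered by a gene's reads. The median gene had a rate of 4.16 to 4.67% at 0 min and of 2.27 to 3.42% at 180 min, the highest value at 180 min being that of ZCCHC8 replicate 1. Within a series, the median gene kept 59.0 to 82.3% of its rate over 180 min, again most in ZCCHC8 replicate 1. Replicate 1 kept more than replicate 2 in each line (69.9 against 63.7% for METTL3, 68.1 against 59.0% for YTHDC1 and 82.3 against 65.6% for ZCCHC8). METTL3 replicate 1 had the lowest median rate at 0 min, and its 95th percentile over genes, 6.75%, lay below the 8.03 to 9.85% of the other series. The 5th percentile of the rate was 1.34 to 1.42% at 0 min and 1.26 to 1.65% at 180 min, and the 1st percentile at 180 min was 0.983 to 1.16%. No unlabelled library was used, so how much of a rate near 1% is sequencing error was not tested, and rates of the fastest genes end within this range. The libraries held 5589652 to 17982299 reads. The 10 mES cell markers summed to 2607 to 3991 CPM per library, while the 15 markers of feeder fibroblasts summed to 36.8 to 77.6 CPM, the 10 of primitive endoderm to 88.0 to 287 CPM and the 9 of two-cell-like cells to 10.96 to 67.97 CPM. None of these markers was at 0 in all libraries.

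To ask which mRNAs lose their label, the rate at 180 min was set against that at 0 min within each series. The rate fell in 4855 of 7489 genes (64.8%) and was higher at 180 min in 990 (13.2%, limma, adjusted p under 0.05). The average gene-wise share of the rate kept ran from 24.4% at the 5th percentile of genes to 128% at the 95th, around a median of 69.2%. It was under 30% for 839 genes and over 100% for 1933.

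To rank genes, each series was centred on its median gene, so that a negative log2 value means that a gene kept less of its rate than the median gene. By this measure 3345 genes lost label faster (44.7%) and 3382 more slowly (45.2%) than the median gene, and 6337 of these 6727 had the same sign in 6 of 6 series. Because nearly all genes differed from the median in this test, genes at least 1.5-fold away from it and past the same threshold are also counted below, 2231 faster (29.8%) and 1756 slower (23.4%). This second count was chosen after the data were seen, and it depends on the genes and the measure used. With at least 500 reads in every library it was 649 faster and 79 slower of 2589 genes, and by the amount of label, the rate multiplied by the read level, 1247 faster and 493 slower of 7489. The amount of label uses the rate without removal of sequencing error, so mismatches in unlabelled reads also count towards it. The new-to-total ratio of the deposited tables, in which a model removes sequencing error, called 3321 genes faster and 3382 slower. Both measures rest on the same reads, and 6504 of the 6727 calls were made in the same direction by both and 0 in opposite directions. The order of genes was alike in all lines, with Spearman's rho across genes from 0.925 to 0.968 over the 15 pairs of series, all of which share the annotation and the labelling scheme.

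**Figure D1:**
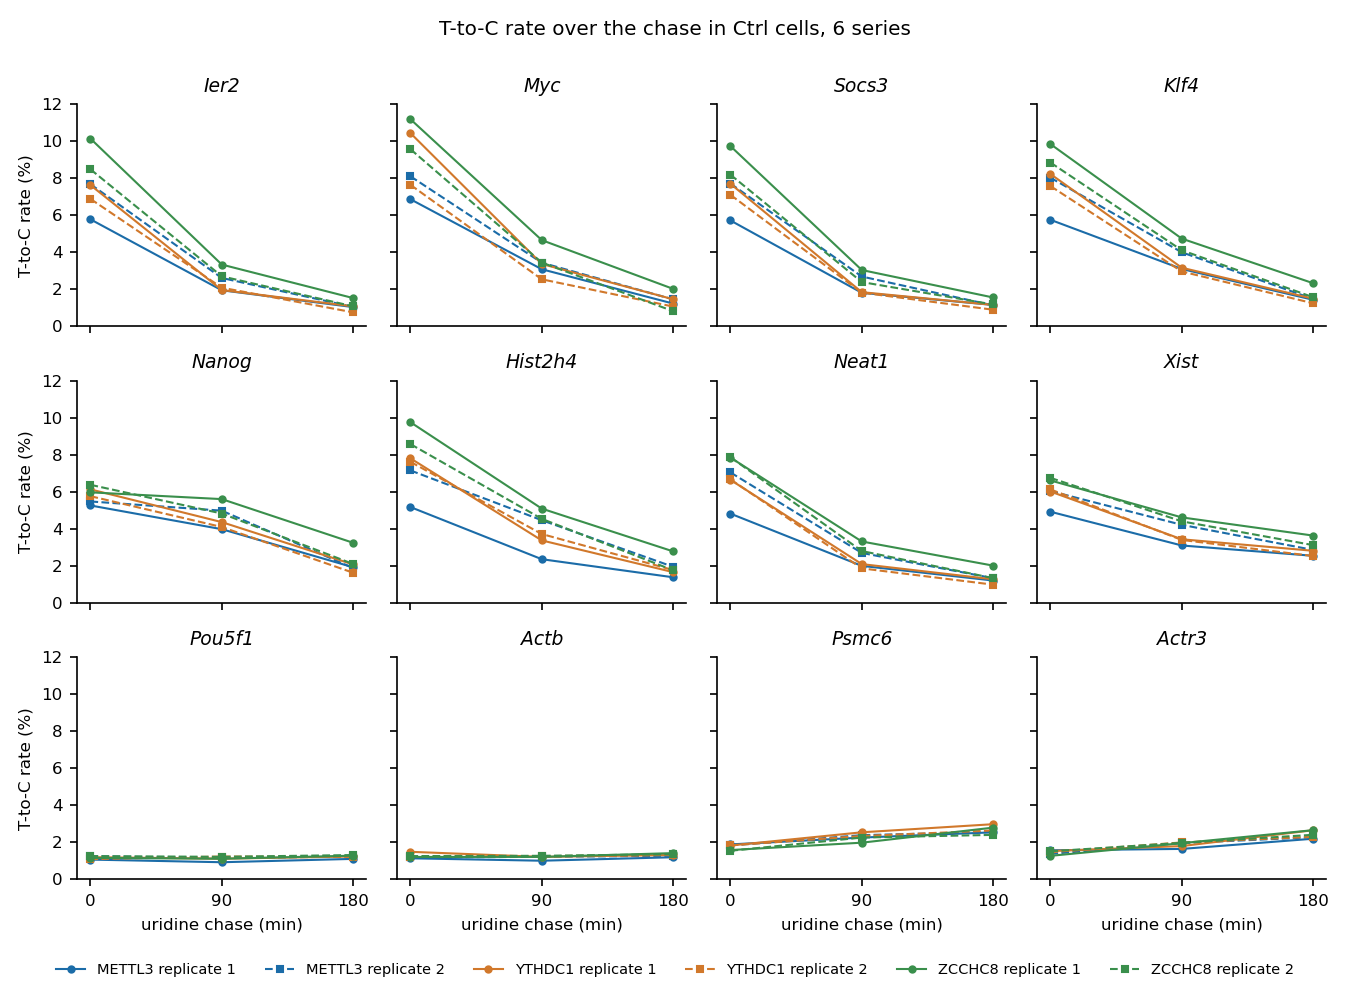
T-to-C rate in percent (vertical axis) against chase time in minutes (horizontal axis) for 12 genes, 1 line per series, with colours for the 3 lines, solid lines for replicate 1 and dashed lines for replicate 2. The rates of Ier2, Myc and Socs3 lie between 0.757 and 2.03% at 180 min in the 6 series, whereas those of Psmc6 and Actr3 are higher at 180 min than at 0 min.

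The 12 genes with the fastest label loss, chosen among genes without an overlapping neighbour, were Ier2, Cyr61, Zfp747, Myc, Zfp574, Zfp180, Cmtr2, Amotl2, Socs3, Bag5, Fgf4 and Lif. They kept 14.1 to 16.4% of their rate on average, going from 7.64 to 9.04% at 0 min to 1.09 to 1.40% at 180 min. Ier2 (ENSMUSG00000053560, chromosome 8, 84661331 to 84662852 in mm10, a single-exon gene) encodes an immediate early nuclear protein. Its rate was 5.78, 7.66 and 10.1% (lowest, median and highest of 6) at 0 min, 1.95, 2.35 and 3.34% at 90 min and 0.757, 1.06 and 1.53% at 180 min. The libraries of the 3 times did not overlap. Ier2 kept 14.1 ± 2.38% of its rate (SD, n = 6 series), a centred log2 value of -2.28 (SE 0.0697, limma adjusted p 2.59e-17), and its rate declined with an apparent half-time of 63.8 ± 5.51 min.

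Myc (ENSMUSG00000022346, chromosome 15, 61985391 to 61990374), the growth-promoting transcription factor, had rates of 6.87, 8.84 and 11.2% at 0 min and of 0.820, 1.34 and 2.03% at 180 min. It kept 15.2 ± 3.75%, a centred log2 value of -2.20 (limma adjusted p 4.62e-13). Its read count also fell, with a log2 change of -1.04 (SE 0.331, edgeR adjusted p 0.0146). Lif, the cytokine that sustains self-renewal, kept 16.4 ± 4.68% while its read count fell by 0.89 on the log2 scale (edgeR adjusted p 6.16e-05). Socs3 (ENSMUSG00000053113, chromosome 11, 117966079 to 117970047), the feedback inhibitor of LIF signalling, had rates of 5.72, 7.71 and 9.74% at 0 min and of 0.899, 1.16 and 1.56% at 180 min, and kept 15.5 ± 2.56%. Unlike those of Myc and Lif, the read count of Socs3 was higher at 180 min, by 0.93 on the log2 scale (edgeR adjusted p 2.78e-05). Amotl2, a Hippo pathway scaffold, went further in this direction, keeping 15.5 ± 2.58% of its rate while its level rose from 42.0 ± 15.0 to 125 ± 44.1 CPM.

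The AU-rich heptamer TATTTAT, written as DNA, was found in the annotated 3′ UTR of several of these genes. To show how it sits in the mRNA, 1 window of 30 bases is given for 6 of these genes, taken from GENCODE M21 transcripts (mm10), 5′ to 3′ in mRNA sense, with the heptamer in capitals:
Cyr61 (chr3:145647093-145647122, minus strand): tgaatgttttttTATTTATcaaagtgtagc
Zfp747 (chr7:127372982-127373011, minus strand): cataaataaaatTATTTATttctaaataac
Zfp180 (chr7:24107597-24107626, plus strand): gggataataatcTATTTATtgatactgttg
Cmtr2 (chr8:110223422-110223451, plus strand): ttttacctgcccTATTTATttaatactttt
Socs3 (chr11:117966139-117966168, minus strand): actttgcacataTATTTATATTTATactca
Bag5 (chr12:111709925-111709954, minus strand): agtcaatctcagTATTTATgatttaatcaa
Cyr61, Socs3 and Cmtr2, which methylates the mRNA cap, hold 2 copies each, which in Socs3 overlap and both lie in the window. Lif holds 5 copies, whereas Ier2, Myc and Amotl2 hold 0 in their annotated UTR. A match is a description of the letters and not evidence of a bound factor.

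Functional lists were compared by the number of members called and by the median of their centred values, which is 0.01 over all genes tested. The counts below stand against 44.7% of all genes called faster and 45.2% called slower.

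**Figure D2:**
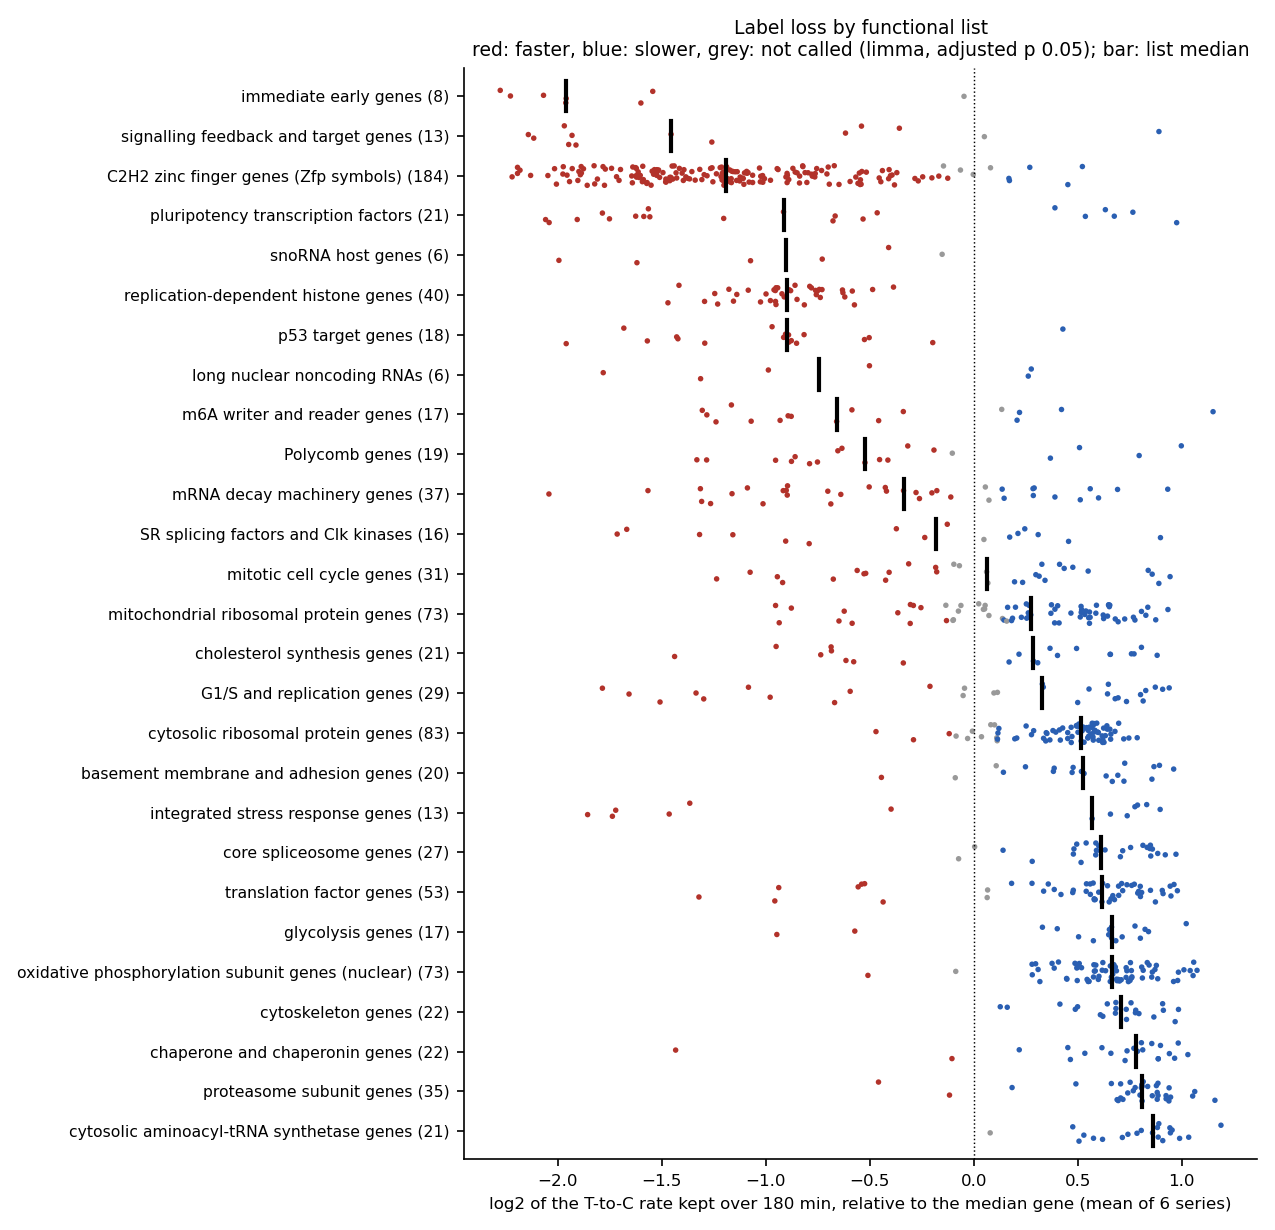
Centred log2 T-to-C rate kept over 180 min (horizontal axis, mean of 6 series) for the members tested in 27 functional lists (rows, with the number of members), where red points were called faster, blue points slower and grey points neither, and the bar is the list median. Medians run from -1.96 for immediate early genes to 0.86 for cytosolic aminoacyl-tRNA synthetase genes.

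Regulators of signalling and transcription were among the fastest groups. Of 8 immediate early genes tested, 7 were faster than the median gene and 0 slower, with a list median of -1.96. Jun, a subunit of AP-1, kept 16.5 ± 4.19% and Nr4a1, a nuclear receptor, 24.1 ± 7.54%, whereas Srf, which drives the transcription of this class, kept 66.1 ± 9.55% and was not called (limma adjusted p 0.469). Fos, Egr1 and Junb did not reach 100 reads in every library. Of 13 genes for signalling feedback and targets, 11 were faster and 1 slower (median -1.45). Fgf4, the FGF ligand of mES cells, kept 15.8 ± 2.38% and Dusp6, the ERK phosphatase, 18.2 ± 5.07%. The ETS factors Etv5 (71.1 ± 13.2%, not called) and Etv4 (127 ± 19.4%, called slower) stood at the other end of this list. Lefty1, the secreted Nodal antagonist, kept 18.4 ± 4.05% of its rate while its level rose from 38.9 ± 10.7 to 138 ± 23.2 CPM. By the amount of label the centred value of Lefty1 was -0.01 in place of -1.91.

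Pluripotency transcription factors were spread over almost the whole range, with 15 of 21 faster and 6 slower (median -0.91). Klf2, Mycn, Sox2, Klf4 and Tbx3 were at the fast end. Klf4 (ENSMUSG00000003032, chromosome 4, 55527143 to 55532466), a naive pluripotency factor, had rates of 5.76, 8.13 and 9.85% at 0 min and of 1.25, 1.49 and 2.33% at 180 min and kept 19.9 ± 3.50%. Sox2 kept 18.3 ± 3.49%, Klf2 16.7 ± 4.47%, Mycn 16.7 ± 3.06% and Tbx3 20.4 ± 3.79%. These 5 factors had similar values, with centred log2 values from -2.06 to -1.75.

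Nanog (ENSMUSG00000012396, chromosome 6, 122707489 to 122714633) was intermediate, with rates of 5.27, 5.87 and 6.38% at 0 min, 3.98, 4.599 and 5.61% at 90 min and 1.63, 2.00 and 3.25% at 180 min. It kept 79.7 ± 10.1% over the first 90 min and 36.7 ± 9.07% over 180 min (limma adjusted p 8.09e-13). Zfp42 (29.8 ± 5.41%) and Esrrb (43.4 ± 9.19%), both markers of the naive state, were on the same side of the median. Pou5f1 (ENSMUSG00000024406, chromosome 17, 35506018 to 35510772), the Oct4 gene, behaved otherwise. Its rates were 1.07, 1.19 and 1.26% at 0 min and 1.11, 1.24 and 1.32% at 180 min, overlapping between the times, and it kept 105 ± 4.50%, a centred log2 value of 0.63 (limma adjusted p 2.75e-10). The rate of Pou5f1 at 0 min lay below the 5th percentile of all genes. Slower still were Tfcp2l1 (116 ± 12.8%) and Dppa4 (134 ± 20.2%), and outside the list Dppa5a kept 107 ± 11.7% and Dnmt3l, a cofactor of de novo DNA methylation, 149 ± 8.64%.

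Genes with a Zfp symbol, mostly C2H2 zinc finger proteins of which many are KRAB repressors, were the largest fast group. Of 184 tested, 175 were faster and 5 slower than the median gene, and 152 were at least 1.5-fold faster (82.6%, against 29.8% of all genes). Their median was -1.19. Zfp747 kept 14.9 ± 3.74% and Zfp574 15.2 ± 3.50%, while the slowest of this group were Zfp106 (93.0 ± 8.31%) and Zfp277 (97.6 ± 9.497%). Some of these genes are close paralogs, and only uniquely aligned reads were kept, so reads that match several copies were left out.

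Replication-dependent histone genes, whose mRNAs end in a stem loop instead of a poly(A) tail and are degraded when DNA replication ends, were all faster, 40 of 40 tested, with a median of -0.90. Hist2h4 (ENSMUSG00000091405, chromosome 3, 96261682 to 96263311) fell from 7.69 ± 1.53% to 1.89 ± 0.477% and kept 24.7 ± 3.35%, and Hist1h3g kept 26.4 ± 8.55%. The slowest histone genes tested, Hist2h2bb and Hist1h4d, still kept only 48.5 ± 4.08% and 52.9 ± 12.0%. The median read count of the list changed by -0.44 on the log2 scale, against -0.11 over all genes tested. In such bulk samples fewer cells of a type or phase and less RNA per cell cannot be told apart. Histone genes are near-identical copies, so values of single genes are uncertain, and libraries were made from total RNA, which keeps RNA without a poly(A) tail.

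Of 18 p53 targets, 17 were faster and 1 slower (median -0.90, and -0.43 by the amount of label). Cdkn1a, the p21 cell cycle inhibitor, kept 17.8 ± 4.10%, Plk2 21.3 ± 2.87% and Mdm2, the ubiquitin ligase of p53, 25.5 ± 3.33%. Bax, the apoptosis effector, was the slower exception with 91.9 ± 13.4%. Perp was called faster with 59.2 ± 3.05%, but its read count rose by 1.00 on the log2 scale, and its amount of label had a centred value of 0.84, opposite in sign to that of its rate, -0.20. Genes of the integrated stress response were divided, with 6 of 13 faster and 7 slower, and a median of 0.57. This median became -0.44 after a background floor, the 1st percentile of the gene rates in each library, was subtracted from each rate. That step left 11 of the 13 genes, and how much of the floor is sequencing error was not tested. The regulators Atf4 (19.03 ± 3.67%) and Ddit4 (20.5 ± 2.75%) were fast and the biosynthetic enzymes Psat1 (122 ± 17.7%) and Aldh18a1 (129 ± 30.5%) were slow.

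Genes that act on RNA were on both sides. Of 37 genes of the mRNA decay machinery, 24 were faster (64.9%, against 44.7% of all genes) and 11 slower (median -0.34, and -0.09 by the amount of label). The antiproliferative adaptors Tob1 (16.6 ± 2.36%) and Btg1 (23.2 ± 4.55%), which bring the CCR4-NOT deadenylase to mRNAs, were the fastest, and the nucleases Dis3 (110 ± 13.1%) and Xrn2 (131 ± 23.9%) the slowest. Of 17 m6A writer and reader genes, 12 were faster and 4 slower (median -0.66). Rbm15 and Wtap, regulatory subunits of the methyltransferase complex, kept 27.6 ± 3.901% and 28.2 ± 4.70%, and the readers Igf2bp1 and Igf2bp2 kept 91.5 ± 14.0% and 154 ± 41.8%. By the amount of label both Igf2bp genes were on the other side of the median, at -0.13 and -0.15, beside read counts that fell by 0.61 and 1.36 on the log2 scale. The mRNAs of the tagged proteins were all faster than the median gene over the 6 series, Ythdc1 with 32.6 ± 5.42%, Zcchc8 with 40.3 ± 8.48% and Mettl3 with 45.6 ± 7.498% kept.

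Of 16 SR splicing factors and Clk kinases, 9 were faster (56.2%, near the 44.7% of all genes) and 6 slower (median -0.18). The kinases Clk4 (20.8 ± 3.02%) and Clk1 (21.7 ± 4.52%), known for introns that stay in the nucleus until they are spliced, were the fastest by rate. The level of Clk4 rose from 44.6 ± 10.8 to 144 ± 22.2 CPM, and by the amount of label its centred value was 0.05 and had changed sign, while that of Clk1 was -0.43. Srsf1 (93.5 ± 12.1%) and Srsf9 (126 ± 9.62%), both SR proteins, were slower. Core spliceosome genes had 0 of 27 members faster and 25 slower (median 0.61), with 129 ± 12.1% for Snrpd1 and 135 ± 25.6% for U2af1. Polycomb genes had 14 of 19 faster and 4 slower (median -0.52). Cbx2 (27.3 ± 4.97%) and Rybp (28.3 ± 5.70%) were the fastest, and the histone-binding subunits Rbbp4 (118 ± 11.5%) and Rbbp7 (136 ± 17.97%), which other chromatin complexes also use, the slowest.

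Among noncoding RNAs, Neat1 (ENSMUSG00000092274, chromosome 19, 5824708 to 5845478), the scaffold of paraspeckles, had rates of 4.83, 6.86 and 7.87% at 0 min and of 0.988, 1.31 and 2.02% at 180 min and kept 20.1 ± 4.37%. Its level rose from 56.1 ± 14.8 to 188 ± 45.4 CPM, and by the amount of label its centred value was 0.00 in place of -1.78. Malat1, another abundant nuclear RNA, kept 81.6 ± 8.87% and Meg3 82.2 ± 5.92%, and both were called slower than the median gene. Xist (ENSMUSG00000086503, X chromosome, 103460366 to 103483254), which silences the X chromosome and was induced here by doxycycline, had rates of 4.93, 6.09 and 6.76% at 0 min and of 2.53, 2.84 and 3.64% at 180 min. It kept 48.0 ± 4.74% (centred log2 -0.50, limma adjusted p 8.06e-10), its read count rose by 0.91 on the log2 scale, and by the amount of label it was slower than the median gene, at 0.49. Of 6 snoRNA host genes, 5 were faster and 0 slower (median -0.90), among them Dancr with 17.4 ± 3.896% and Snhg6 with 22.5 ± 4.90%. Neat1, Xist, Dancr and Snhg6 overlap other annotated genes, and spliced and unspliced reads were not separated.

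Cell cycle genes showed no shared side. Of 31 mitotic genes 13 were faster and 14 slower (median 0.06), and of 29 G1/S and replication genes 10 were faster and 15 slower (median 0.33, which became -0.06 by the amount of label). E2f3 (20.1 ± 4.67%) and Cdc25a (21.9 ± 4.86%), which promote entry into S phase, were fast. The helicase subunit Mcm6 (130 ± 7.90%) and the clamp loader subunit Rfc4 (128 ± 14.7%) were slow. Among mitotic genes, Plk4 (29.3 ± 6.23%) and Fam83d (32.4 ± 4.17%) were fastest, and Ccnb1 (50.8 ± 6.27%, called faster) and Ccnb2 (131 ± 16.8%, called slower), which encode the B-type cyclins, were on opposite sides of the median. Nusap1 kept 126 ± 16.8%.

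Genes of basic metabolism and protein homeostasis were slow. Of 83 cytosolic ribosomal protein genes, 72 were slower and 3 faster (median 0.52), of 73 nuclear genes for oxidative phosphorylation subunits 71 were slower and 1 faster (0.67), and of 35 proteasome subunit genes 33 were slower and 2 faster (0.81). Aminoacyl-tRNA synthetase genes had 20 of 21 slower and 0 faster (0.86), chaperone genes 20 of 22 slower and 2 faster (0.78), and cytoskeleton genes 22 of 22 slower (0.71). Translation factors (44 of 53 slower, 7 faster, 0.62), glycolysis genes (15 of 17 slower, 2 faster, 0.66) and basement membrane and adhesion genes (17 of 20 slower, 1 faster, 0.52) were alike. The share at least 1.5-fold slower was 88.6% for the proteasome and 24.1% for cytosolic ribosomal proteins, against 23.4% of all genes. By the amount of label the medians were nearer to 0, at 0.42 for synthetases, 0.31 for cytoskeleton genes, 0.31 for translation factors, 0.36 for glycolysis, 0.46 for chaperones, 0.57 for the proteasome, 0.55 for oxidative phosphorylation, 0.40 for cytosolic ribosomal proteins and 0.34 for adhesion genes. The median rate at 0 min was 1.65% for the proteasome and also for cytosolic ribosomal proteins. It was 1.40% for oxidative phosphorylation, against 4.53% over all genes.

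In several of these lists the rate was higher at 180 min than at 0 min. This was so for 26 of 35 proteasome genes, 24 of 73 oxidative phosphorylation genes and 15 of 21 synthetase genes, against 13.2% of all genes. Psmc6 (ENSMUSG00000021832, chromosome 14, 45329788 to 45349705), an ATPase of the proteasome base, had rates of 1.55, 1.84 and 1.90% at 0 min, 1.99, 2.31 and 2.55% at 90 min and 2.41, 2.61 and 2.99% at 180 min. The 3 times did not overlap, and its rate at 180 min was 152 ± 15.8% of that at 0 min. Farsb (156 ± 28.8%), Nars (140 ± 22.2%), Psmd14 (142 ± 16.4%), Ndufv2 (144 ± 33.6%), Ndufc2 (147 ± 45.1%), Hsp90b1 (139 ± 13.6%), Cct2 (134 ± 12.4%), Tpm3 (134 ± 6.04%), Tpm4 (133 ± 7.71%), Etf1 (134 ± 17.3%) and Eif2a (132 ± 8.93%) had the same direction. The cause of these rises was not tested.

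The 12 slowest genes without an overlapping neighbour were Rars2, Actr3, Vbp1, Uchl3, Rpa3, Aard, Snx6, Pcyt1b, Psmc6, Psmg1, Basp1 and Yme1l1, with rates at 180 min of 152 to 179% of those at 0 min. Actr3 (ENSMUSG00000026341, chromosome 1, 125392905 to 125435727), a subunit of the Arp2/3 complex that nucleates actin branches, rose from 1.28, 1.50 and 1.58% to 2.20, 2.36 and 2.67%. Its centred log2 value was 1.29 (SE 0.0541, limma adjusted p 1.87e-15), and its read count fell by 0.72 on the log2 scale. Rars2, the mitochondrial arginyl-tRNA synthetase, kept 179 ± 42.6%. Among the rest, Vbp1, a prefoldin subunit, kept 167 ± 27.5%, Uchl3, a ubiquitin hydrolase, 167 ± 37.1%, Psmg1, which assembles proteasomes, 154 ± 30.7%, and Yme1l1, a mitochondrial protease, 152 ± 21.0%. Rpa3, a subunit of the single-stranded DNA binding complex RPA, kept 164 ± 21.0%, Snx6, a sorting nexin, 154 ± 16.6%, Pcyt1b, an enzyme of phosphatidylcholine synthesis, 154 ± 24.0%, Aard 163 ± 22.9% and Basp1 152 ± 16.0%.

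Textbook stable mRNAs had flat rates. Actb, Gapdh, Ldha, Eef1a1, Rplp0 and Rpl4 had rates of 1.11 to 1.60% at 0 min and kept 89.7 to 107% on average, with centred log2 values of 0.40 to 0.66. These rates lie around the 5th percentile of all genes at 0 min, 1.34 to 1.42%. How much of such low rates is sequencing error was not tested. Hspa8 (93.8 ± 8.42%) and Tubb5 (115 ± 9.37%) were also called slower, as was Odc1 (124 ± 9.71%), the polyamine enzyme best known for the short life of its protein.

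Several of the slow lists had members that were called faster. Rpl22l1, a paralog of a ribosomal protein, kept 50.2 ± 12.5% and Rpl10a 55.5 ± 4.15%, both called faster, although their rates at 0 min were only 1.65 ± 0.503% and 1.71 ± 0.136%. The paralogs Rpl10l and Rps27l kept 116 ± 23.3% and 117 ± 13.7%. Ndufb2 (47.9 ± 5.81%) was the only oxidative phosphorylation gene called faster, and Psmd9 (49.6 ± 5.51%), an assembly chaperone rather than a stable subunit, was the fastest gene of the proteasome list. Dnajb1, a heat-inducible cochaperone, kept 25.3 ± 3.87%, and the translation factors Eif1a and Eef1e1 kept 27.6 ± 5.94% and 35.3 ± 6.18%. Among glycolysis genes, Hk2 (35.9 ± 8.19%) and Slc2a1 (46.0 ± 7.01%), the entry steps of the pathway, were faster, while Pfkp and Pfkm kept 122 ± 11.3% and 141 ± 38.6%. Plod2 was the faster gene of the adhesion list (49.9 ± 4.18%), although by the amount of label it had a value of 0.44, and Lamc1 (126 ± 13.9%) and Cd9 (133 ± 20.4%) were its slowest.

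Mitochondrial ribosomal protein genes were less uniform, with 49 of 73 slower and 12 faster (median 0.27, and 0.08 by the amount of label). They ran from Mrpl32 (35.4 ± 5.56%) and Mrps2 (35.7 ± 5.19%) to Mrpl2 (125 ± 11.4%) and Mrpl39 (130 ± 15.1%). Cholesterol synthesis genes were split, with 8 of 21 faster and 13 slower (median 0.29, and 0.01 by the amount of label). Sc5d (35.3 ± 4.14%) was among the faster genes, and Mvk (121 ± 25.8%) and Acat2 (126 ± 16.3%) were the slowest. Ccnd1, cyclin D1, kept 86.0 ± 14.4% and was called slower, but by the amount of label it lay at -0.06.

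Label loss followed the rate at the end of the pulse across genes. Spearman's rho between the centred value and the mean rate at 0 min was -0.93 over 7489 genes, a description in which the rate at 0 min also stands in the denominator of the change. When genes were split by this rate into 10 groups of equal size, the median gene kept 26.1% in the highest group (8.03% or more), 64.3 and 78.4% in the middle groups and 115% in the lowest (at most 1.71%). Genes with more reads lost label more slowly. Of 4 groups of equal size by mean reads, the one with the most reads had a median centred value of 0.46 and the others -0.24 to -0.02.

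**Figure D3:**
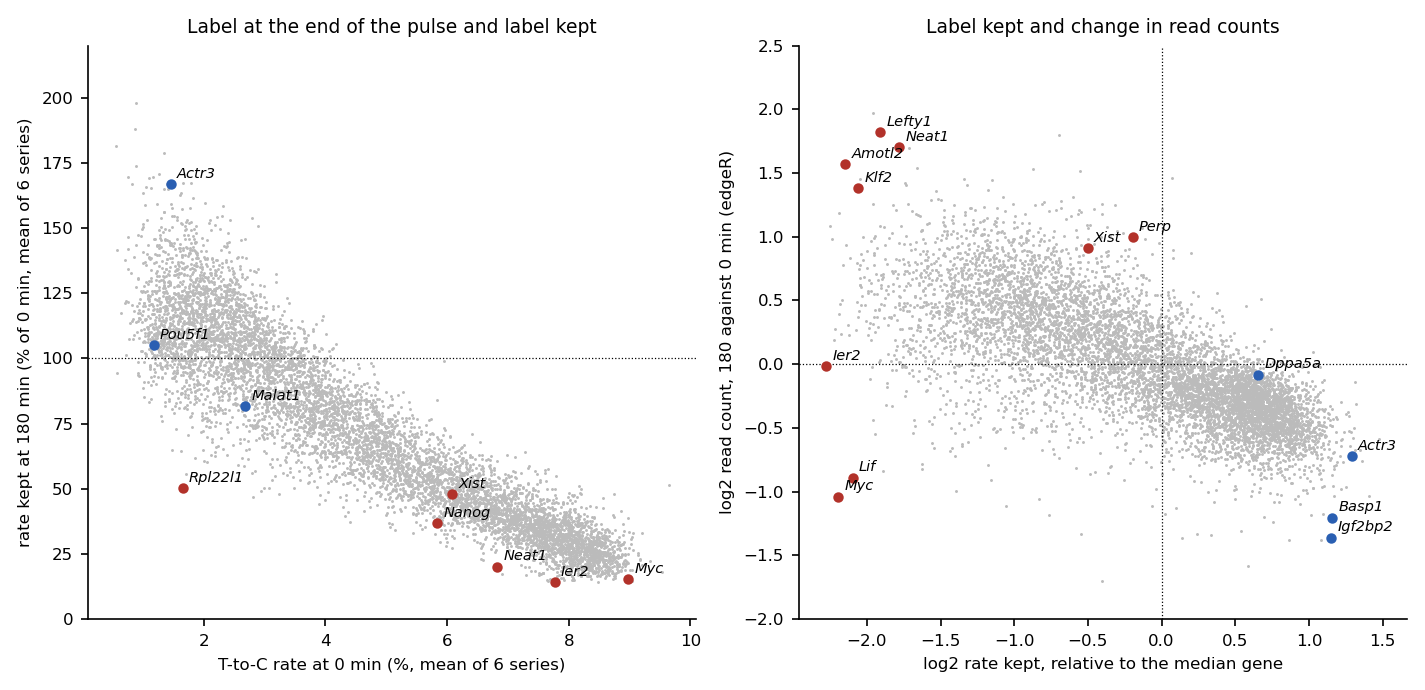
Left, mean T-to-C rate at 0 min in percent (horizontal axis) against the percent of it kept at 180 min (vertical axis) for 7489 genes (grey), with named genes in red where faster and in blue where slower than the median gene. Right, centred log2 rate kept (horizontal axis) against the log2 read count change from 0 to 180 min (vertical axis) for the same genes, in which Myc and Lif lie below 0 and Lefty1 and Neat1 above 1.5.

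Whether label loss was early or late was tested by setting the log2 change over the first 90 min against that over the second, relative to the median gene. The median gene kept 83.5 to 94.5% of its rate over the first 90 min, and 66.5 to 83.7% of the rest over the second. Compared with it, loss was steeper in the first 90 min for 1864 genes (24.9%) and in the second for 1615 (21.6%, limma, adjusted p under 0.05). A gene called early can therefore still lose more in the second 90 min. Mir17hg, a microRNA host transcript that overlaps 6 annotated genes on its strand, kept only 27.2 ± 3.35% at 90 min and 14.7 ± 3.19% at 180 min, a difference of -1.20 (adjusted p 5.00e-06). The noncoding 5430416N02Rik was alike, with 29.5 ± 1.64% and 17.7 ± 2.89%. Eno3 was the third of these, with 68.4 ± 32.3% and 81.9 ± 24.7%, a spread as wide as its change. Dusp27, Commd5 and Sphk2 were the largest in the other direction, keeping 81.9 ± 9.08%, 74.9 ± 14.8% and 74.8 ± 6.18% at 90 min but 33.6 ± 9.08%, 26.6 ± 7.97% and 29.2 ± 6.37% at 180 min. Nanog was also late (0.59, adjusted p 9.82e-06), whereas Socs3 (-1.07), Neat1 (-0.84) and Xist (-0.48) were early.

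The 3 lines were compared to ask whether undepleted clones lose label alike. No gene passed the F test (limma, 0 of 7489, 0%), while 367 had an unadjusted p under 0.05 and the smallest adjusted p was 0.0941, for Rpl22l1. In simulated data the same test recovered 9% of genes that differed by 0.5 on the log2 scale. The simulation gave every gene the same spread and added counting noise to a spread that already held it. This share is therefore not the power in the real data, where differences of this size may still be missed. The count rested on single series, since 58 genes passed without ZCCHC8 replicate 2, 15 without ZCCHC8 replicate 1, 8 without METTL3 replicate 2 and 1 without METTL3 replicate 1, and 3 passed with a replicate block. The centred values of Rpl22l1 were -0.92 and -0.88 in the ZCCHC8 line, against -0.34 and -0.66 for METTL3 and 0.02 and -0.05 for YTHDC1. Dtd1, Rpgr, S100a6 and Tomm7 followed (adjusted p 0.204 to 0.224). The first 3 of these had lower values in the ZCCHC8 line, as in Rpgr with 0.30 and 0.69 against 0.99 to 1.56 in the others, and Tomm7 had higher values in the YTHDC1 line.

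Read counts also moved over the chase. Of 14267 genes with enough reads, 3803 were higher (26.7%) and 3533 lower (24.8%) at 180 than at 0 min (edgeR, adjusted p under 0.05). This fit had no term for the series, and with such a term 4590 were higher and 4910 lower. Without the ZCCHC8 line 1915 were lower, and without the YTHDC1 line 2297. Genes with fast label loss tended to have higher counts at 180 min, with a Spearman's rho of -0.75 across the 7489 genes between the centred value and the log2 change, 2 quantities from the same libraries. Of the 10 groups by rate at 0 min, the highest had a median log2 change of 0.46 and the second lowest of -0.38. When the amount of label was used, the medians of most lists came closer to the median gene, among fast lists to -0.76 for Zfp genes and -0.74 for signalling feedback genes, but reached -1.27 for histone genes and -1.03 for pluripotency factors.

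The largest rises among genes of the same sign in 6 of 6 series were in weakly expressed genes. Gm10754 went from 0.0698 ± 0.0811 to 1.54 ± 0.503 CPM, Eya4, a developmental transcription cofactor, from 0.276 ± 0.204 to 3.00 ± 0.374 CPM, Slc5a8 from 0.254 ± 0.135 to 2.67 ± 0.565 CPM and Hs3st4 from 0.603 ± 0.361 to 5.42 ± 0.543 CPM. Ppp2r2b, Gm12248 and Pde1a followed with log2 changes of 3.09, 2.90 and 2.68. In Gadd45g, a growth arrest gene, the level rose from 5.08 ± 1.75 to 33.7 ± 15.8 CPM (log2 2.66, edgeR adjusted p 3.38e-05). Of these 8 genes, 5 span over 200 kb of the genome, from 248 kb in Eya4 to 422 kb in Ppp2r2b. Among all 679 genes tested of this span, 29.9% were higher at 180 min, near the 26.7% of all genes, and among 3605 genes under 10 kb 16.7%.

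The largest falls were in Pax8, Gsx1, Zfp469, D630039A03Rik, B3gnt3, Ddx60, Gm13203 and Meis2, with log2 changes from -2.50 to -1.82. Pax8, a transcription factor of the kidney and thyroid, went from 1.38 ± 0.216 to 0.244 ± 0.0997 CPM, and B3gnt3, a glycosyltransferase, from 8.92 ± 1.59 to 2.24 ± 0.688 CPM. Ddx60, an RNA helicase induced by interferon, varied most, from 2.19 to 15.8 CPM at 0 min and from 0.539 to 3.04 CPM at 180 min, ranges that overlap between the times. The label of these 16 genes was not tested because none of them reached 100 reads in every library.

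The annotated transcripts were used to describe what fast and slow genes share. In 7440 coding genes tested, 28.95% held TATTTAT, searched on the sense strand of the 3′ UTR with overlapping matches counted. The median centred value was 0.18 in the 5286 genes without it, -0.29 with 1 copy (1447 genes), -0.55 with 2 (457), -0.62 with 3 (157) and -0.80 with 4 or more (93). The share at least 1.5-fold faster grew from 24.4% without a copy to 63.4% with 4 or more. UTRs with the heptamer are longer, and longer UTRs went with faster loss too (Spearman's rho -0.30 across genes). Within each of 4 equal groups of UTR length, genes with a copy still had lower medians than genes without, as in 0.24 against 0.45 for the shortest UTRs and -0.53 against -0.23 for those over 2156 bases. The difference of medians with and without a copy was -0.63 to -0.47 in the 6 series. It shrank to -0.17 by the amount of label.

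The motif TGTANATA, the core of sites bound by Pumilio proteins, was held by 26.7% of the coding genes and had a like gradient, from 0.17 without a copy to -0.75 with 4 or more (80 genes). It too is more frequent in long UTRs, and whether it adds to their length was not tested.

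**Figure D4:**
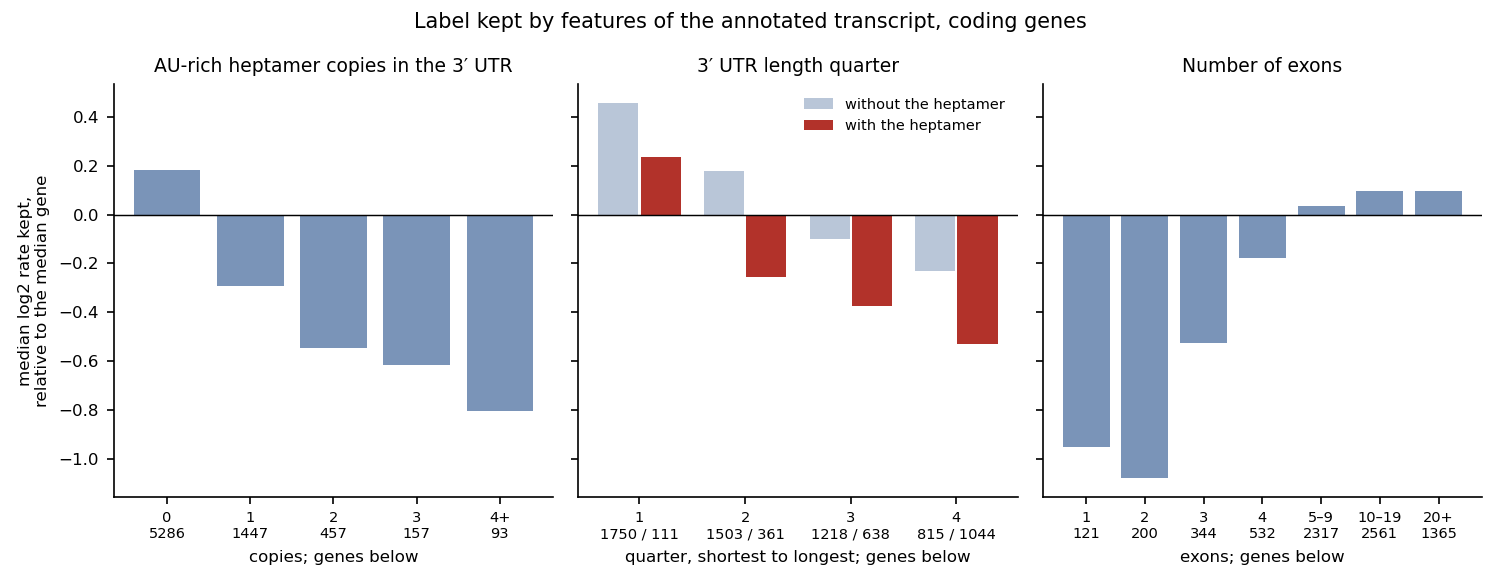
Median centred log2 rate kept over 180 min (vertical axis) of coding genes by the number of TATTTAT copies in the annotated 3′ UTR (left), by 4 equal groups of 3′ UTR length with and without a copy (middle) and by exon number (right), with the number of genes under each bar and no error bars. Medians fall from 0.18 to -0.80 with the number of copies and, by exon number, are -0.95 for 1 exon, -1.08 for 2 and 0.10 for 20 or more.

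Exon number set genes apart as well. Coding genes with 1 exon had a median of -0.95 (121 genes) and those with 2 exons of -1.08 (200), against 0.04 for 5 to 9 exons and 0.10 for 20 or more. Without histone and Zfp genes, 272 genes of 1 or 2 exons still had a median of -1.02, and 62.9% of them were at least 1.5-fold faster. Ier2, Jun, Sox2 and Socs3 are of this kind. By the amount of label, genes of 1 exon, histone genes included, had a median of -1.15 and those of 2 exons of -0.80. Without histone genes, 83 genes of 1 exon had a median of -0.85 by the amount of label, against -1.13 by the rate. Of 34 long intergenic noncoding RNAs tested, the median was -0.82.

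X-linked genes other than Xist had a median of 0.55 (262 genes) against -0.01 for 7219 autosomal genes, and 46.2% of them were at least 1.5-fold slower against 22.6%. The difference of medians was positive in each series, from 0.37 to 0.60, and was 0.23 by the amount of label. The median rate of X-linked genes at 0 min was 2.84%, against 4.61% for autosomal genes, and their median read count changed by -0.31 against -0.10 on the log2 scale. All these cells were inducing Xist, and no uninduced library was used, so the part of X inactivation in this difference cannot be told apart.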

How the data were processed

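SLAM-seq libraries (TruSeq stranded total RNA, paired-end) were processed by the authors, who removed ribosomal reads, aligned the rest to mm10 with STAR 2.5.2b (unique, end-to-end, with a mismatch limit that can remove strongly converted reads) and ran GRAND-SLAM per line and replicate. Its version and its masking of variants are not given in the sources used here. The deposited files hold raw read counts, the new-to-total ratio as a fraction (posterior maximum, MAP, and mean) and conversion and coverage signal sums, of which 288 per-library columns were not used. GENCODE M21 (mm10) gave positions.

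The rate is (conversions + 0.5)/(coverage + 1). Log2 of 180 over 0 min was formed within each series, centred on its median and tested with limma 3.58.1 (trended, robust, Benjamini-Hochberg adjustment over 7489 genes, threshold 0.05). Read counts were tested with edgeR 4.0.16 (quasi-likelihood, TMM, line and time as terms, with no term for the series). CPM are TMM-scaled. The study describes its RNA-seq replicates as independent repeats of a clone and says that the wells of a replicate were split from 1 batch of cells, which is where the pairing of times within a series comes from. Repeats of a clone do not stand for other clones. Replicates differed by more than sampling noise (chi-square per degree of freedom 2.52 to 72.7). On simulated data 99% of 200 genes changed by 0.5 (log2) were recovered by the label test over 7489 genes, with 17 false calls, and 83% of 200 changed by 1 by the count test over 14113 genes, with 7. The simulated label values had the same spread for every gene, with counting noise added to it.

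The genes, the lists and the members were chosen with earlier results of these data known. Genes named are the 12 extremes in each direction with the same sign in 6 of 6 series, both measures called alike, a MAP ratio of at least 0.1 at 0 min and no overlapping gene, members among the 2 lowest and 2 highest of each list, fixed textbook genes, the 5 smallest p between lines, the 3 largest early and late, and the 8 largest rises and falls in read counts. Mitochondrially encoded and two-cell-like genes had 0 members tested. R 4.3.3, DESeq2 1.42.0, Python 3.11.15, pandas 2.3.3 and matplotlib 3.10.9 were used. Some genes that the rule names are not reported here.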

Additional observations from a re-analysis of the deposited data

Results flagged for a closer look

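Of 217 values examined over the 6 series or 6 libraries of a time, 22 had 1 sample apart from the others by Dixon's test, where chance gives about 1 in 20. The causes were not tested.

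METTL3 replicate 1 was the sample apart in 14 of them. Its median rate at 0 min was 4.16%, against 4.51 to 4.67% in the other series. Its centred log2 values were nearer to 0 for the fast genes Sox2 (-1.585, others -2.04 to -1.91), Klf4 (-1.488), Plk2 (-1.451), Clk1 (-1.277), Btg1 (-1.217), Dnajb1 (-1.198), Nr4a1 (-0.911) and Ythdc1 (-0.808), and for the median of the immediate early genes (-1.589, others -2.07 to -1.94). Hist1h4d was at 0.1022, above 0 in this series alone, and Eno3 at -0.7665, against 0.22 to 0.54 elsewhere. The slow genes Actr3 (0.9963) and U2af1 (0.5944) were also nearer to 0.

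ZCCHC8 replicate 1 had a median rate of 3.418% at 180 min, against 2.27 to 2.69% in the others. Nanog was at -0.5987 in this series (others -1.06 to -0.89), and since Nanog is the middle member of the pluripotency factors their median had the same value. Rpl4 (0.4107) and Srsf9 (0.4159) were lower there than in the other series. YTHDC1 replicate 1 was apart for Fam83d (-1.319) and Srf (-0.2227). B3gnt3 had 11.96 CPM at 0 min in ZCCHC8 replicate 2, against 7.66 to 9.14 CPM in the others.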

How the results depend on the processing

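Leaving out each replicate in turn gave 3287 to 3347 faster and 3311 to 3372 slower genes. With at least 500 reads (2589 genes, median shifted by -0.41) the counts were 1107 and 1121, and those at least 1.5-fold away 649 faster and 79 slower. With at least 20 reads 3091 genes were at least 1.5-fold slower (median shifted by 0.18). The 1.5-fold counts, faster and slower, were 1247 and 493 by the amount of label, 784 and 17 over 0 to 90 min and 912 and 673 over 90 to 180 min. The same 1.5-fold limit was used for the 90 min intervals as for 180 min, so their counts are not on the same scale. The cause of the moves was not tested beyond the number of genes.

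Within a line, libraries of a replicate at different times deviated together with r from -0.03 to 0.38 in 9 pairs. Across lines, the difference of replicate 1 and 2 in centred values correlated with r of 0.22 to 0.28 over genes in the 3 pairs of lines, a check added after seeing the data, and 10 of 27 lists had a higher median in replicate 2 in all lines and 5 in replicate 1. What the numbers share across lines is not given in the sources used here. The fit without the replicate block also centred each library on its own median, which shifted the values of all genes alike by 0.21. It gave 2838 genes faster and 3944 slower, and Perp (0.0088) and Srf (0.1590) changed sign with this shift. With the replicate block 3 genes differed between lines, and 4590 read counts were higher and 4910 lower. Leaving out a replicate gave 0 to 58 genes between lines, 58 without ZCCHC8 replicate 2, 15 without ZCCHC8 replicate 1, 8 without METTL3 replicate 2 and 1 without METTL3 replicate 1. DESeq2 called 3704 read counts higher and 3786 lower. Lower read counts were 2297 without the YTHDC1 line and 1915 without the ZCCHC8 line, fits chosen after seeing the data.

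The heptamer difference was -0.4756 by the MAP ratio, -0.6483 with a background floor subtracted and -0.1708 by the amount of label, against -0.5710. The X-linked difference was 0.4532, 0.7221 and 0.2336, against 0.5553. The difference by exon number was -1.3352 with the floor subtracted, against -1.0454.

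Single genes changed sign by the amount of label in Neat1 (0.0046), Clk4 (0.0465), Xist (0.4862), Plod2 (0.4364), Perp (0.8431), Etv5 (-0.3213), Meg3 (-0.0793), Ccnd1 (-0.0591), Igf2bp1 (-0.1330), Igf2bp2 (-0.1475), Pfkp (-0.0162) and Basp1 (-0.0014). Over 90 to 180 min this held for Ndufb2 (0.0963), Xist (0.0344), Rpl22l1 (0.1778), Rpl10a (0.1471), Perp (0.1075) and Etv5 (-0.0863), and over 0 to 90 min for Eno3 (-0.4982) and Meg3 (-0.0044). With at least 500 reads it held for Etv5 (-0.3580), Malat1 (-0.1470), Meg3 (-0.1326), Ccnd1 (-0.0793), Tomm7 (-0.0222) and Gapdh (-0.0077), and with at least 20 reads for Srf (0.1325). In these read settings the rates of the genes were unchanged. Only the median gene differed, which moved all values by -0.41 and 0.18. The MAP ratio, which rests on the same reads, changed the sign of 0 of 151 genes. The fastest and slowest genes without an overlapping neighbour were named only where the rate and the MAP ratio were called alike. For these genes the sign could not change, so they do not test the choice of measure. Subtracting the background floor left only 120 of the 151 genes, of which 116 kept the same call and 0 changed sign. Rates near the lowest percentiles limit what can be said of both the fastest genes at 180 min and the slowest at 0 min.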

Other observations

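Label loss also varied between autosomes. Chromosome 13 had the lowest median centred value, -0.42 over 297 genes, and its value was -0.50 to -0.30 in the 6 series, while the other autosomes had medians of -0.27 to 0.24. Histone gene clusters and Zfp genes lie on this chromosome. Without histone genes its median was -0.25 over 262 genes, and without histone and Zfp genes -0.14 over 247 genes, within the range of the other autosomes.

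Read counts over the chase varied with the length of a gene. The share of genes higher at 180 min was 16.7% under 10 kb, 28.6% from 10 to 50 kb, 34.2% from 50 to 100 kb, 30.9% from 100 to 200 kb and 29.9% over 200 kb. Spearman's rho between the log2 change and the span was 0.13 across genes, which share the same libraries.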
